A study of Mus musculus with 6 samples.

Results

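The 10 genes described here encode the D cyclins (Ccnd1, Ccnd2, Ccnd3), the E cyclins (Ccne1, Ccne2), a pair of inhibitors of cyclin-dependent kinases (Cdkn1b, Cdkn2c) and the retinoblastoma family of pocket proteins (Rb1, Rbl1, Rbl2). They were chosen by name, with earlier results of these data known, as genes that control passage through the G1 phase of the cell cycle. Every probe set that the platform annotation maps to 1 of them alone was taken. This gave 21 probe sets for the 10 genes, out of 12393 genes measured on 22626 probe sets, and 0 probe sets named a member together with another gene. Total RNA came from a mouse cell line called PPP3R1, which is also the name of the regulatory subunit of calcineurin, and the labels do not say how that gene was altered, how many clones there were or from which tissue the line came. Starvation lasted 6 h in 3 samples, and 3 others in normal medium, 1 array each, formed the control group. No label read here says what the starvation medium lacked. Titles and series design name the same line in normal medium as control, but the protocol fields name wild-type MEFs (mouse embryonic fibroblasts), so a difference in genotype cannot be told apart from starvation if the protocol fields are right. Nothing in the titles beyond the words biological replicate says whether cultures were handled separately, so the spread behind the p-values may be technical.

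In G1, growth factor signals raise D cyclins, which bind the kinases Cdk4 and Cdk6 and start the phosphorylation of the pocket proteins. Hypophosphorylated pocket proteins hold E2F transcription factors in check. Once released, E2F factors drive the E cyclins, which activate Cdk2, and the genes for DNA replication. Cdkn2c (p18) blocks Cdk4 and Cdk6, and Cdkn1b (p27) blocks cyclin E with Cdk2. Fibroblasts deprived of growth factors typically stop in G1 with low cyclin D1 and high p27 protein. Much of the control of p27 and of the pocket proteins lies in protein turnover and phosphorylation, which RNA arrays do not measure.

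All 5 G1 cyclin genes were lower in starved cells, and 4 of the 5 inhibitor and pocket protein genes were higher. Levels are RMA values on the log2 scale, and changes are starved minus control with the standard error (SE) from limma and n = 3 arrays per group. In limma's test across all probe sets, 9 of the 10 genes passed a Benjamini-Hochberg adjusted p of 0.05 in their brightest probe set, 5 lower and 4 higher. Over all genes measured 40.8% passed, 20.1% lower and 20.8% higher. Of the 21 probe sets 20 passed, 13 lower and 7 higher, against 39.5% of all probe sets (19.2% lower and 20.3% higher). The 3 control and 3 starved values did not overlap in 20 of the 21, against 50.4% of all probe sets, or in 9 of the 10 genes, against 52.5% of all genes. Because the genes were chosen with earlier results of these data known, these counts do not test the set. All 13 cyclin probe sets fell, and all 8 probe sets of inhibitor and pocket protein genes had a positive difference, of which 7 passed. RNA was taken from whole cultures, so a change in the share of cells that carry a transcript and a change in the amount per cell cannot be told apart.

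**Figure D1:**
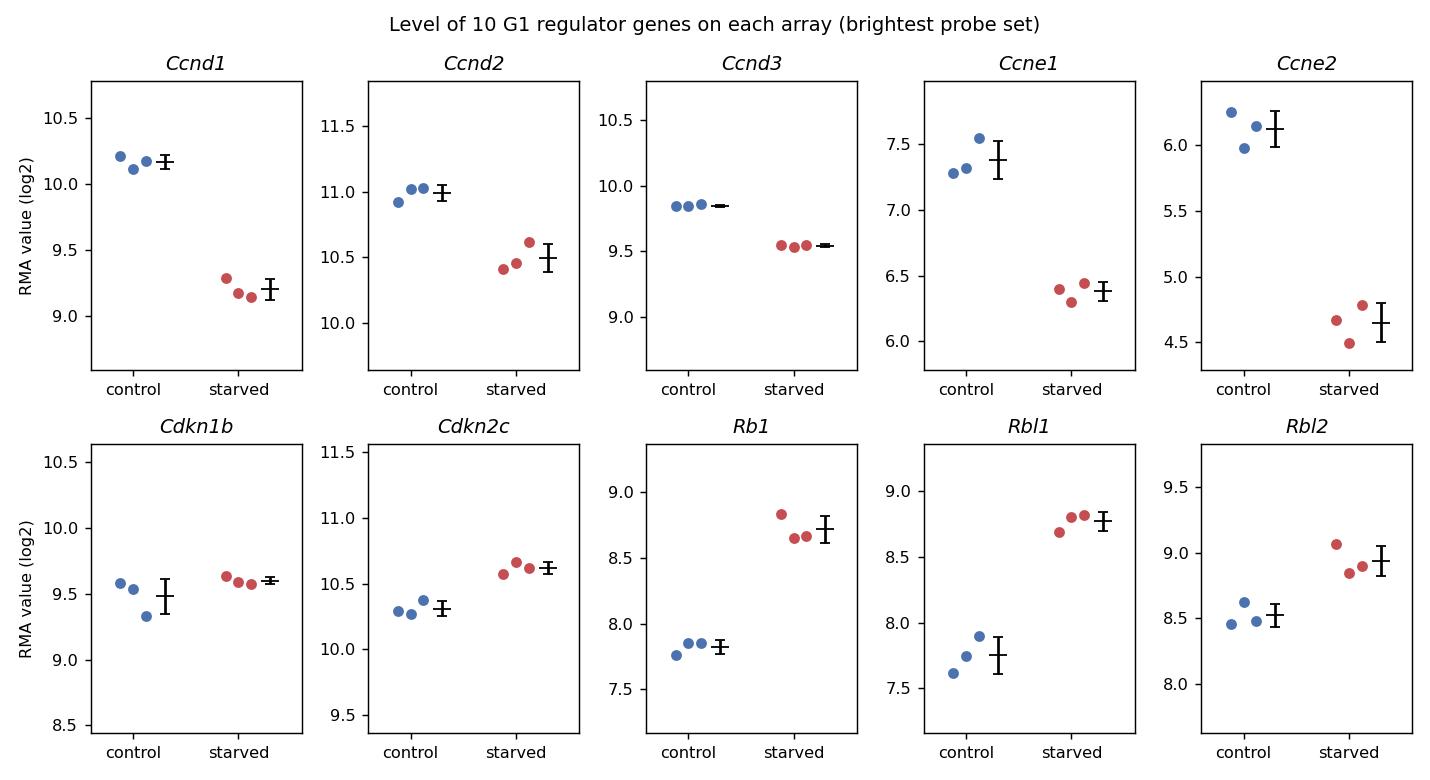
RMA value (log2) of the brightest probe set of each of the 10 genes, with a point for each control array (blue) and starved array (red) and a black bar for the mean ± SD of 3 arrays; every panel spans the same number of log2 units. The starved points lie below all control points for the 5 cyclin genes and above them for Cdkn2c, Rb1, Rbl1 and Rbl2, while the Cdkn1b groups overlap.

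The arrays were alike in overall signal, with medians of 6.74 to 6.78 and correlations across probe sets of 0.998 within groups and 0.986 to 0.988 between groups. Control replicate 3 stood apart from the other control arrays on the second principal component (-14.6 against 8.78 and 5.16), which held 5.81% of the variance. As a sign of RNA quality, the 3 prime minus 5 prime signal of Actb was 0.0344 to 0.0773 in control and 0.0319 to 0.0766 in starved arrays. That of Gapdh was -0.105 to -0.000401 in control and -0.155 to -0.109 in starved arrays, so these groups did not overlap, and its part in the results was not tested. Of 12 fibroblast markers 11 had a mean level of at least 5, the limit used for dim probe sets. Thy1 was the exception, at 4.80 in control and 4.87 in starved cells, and Fap fell from 6.60 to 4.33, under this limit in all 3 starved arrays. The mean level of the fibroblast list was 11.41 to 11.44 in control and 11.03 to 11.09 in starved arrays, with 3 markers higher and 5 lower. Mean levels of the marker lists of epithelial cells (4.26 to 4.51 over all arrays), endothelial cells (3.71 to 4.01), leukocytes (4.64 to 4.89), neural and glial cells (4.41 to 4.82) and muscle cells (4.997 to 5.204) lay near or under the limit of 5. Single markers under 5 were 4 of 6 epithelial, 6 of 6 endothelial, 3 of 5 leukocyte, 3 of 6 neural and 3 of 6 muscle markers. The highest of the others were Des (6.64), Tubb3 (6.49) and Cd68 (6.47). In starved cells 1 of 6 epithelial, 1 of 6 endothelial, 2 of 5 leukocyte, 2 of 6 neural and 0 of 6 muscle markers were higher, and 0 were lower. Over all genes 20.8% were called higher and 20.1% lower.

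Ccnd1 encodes cyclin D1, the D cyclin most closely tied to growth factor signalling in fibroblasts. Its brightest probe set (1417420_at) read 10.22, 10.11 and 10.18 in the control arrays and 9.28, 9.17 and 9.14 in the starved arrays. Every starved array was well below every control array. The fall was 0.97 ± 0.06 (SE), or 1.96-fold (limma adjusted p = 1.91e-05), and 198 of 12393 genes fell by more. The other 2 Ccnd1 probe sets fell too, by 1.13 ± 0.06 (1448698_at) and 0.58 ± 0.10 (1417419_at). The 3 probe sets thus gave the same direction with sizes of up to 2.18-fold. The least of these falls came from the dimmest set, whose starved values of 7.77, 7.89 and 8.12 were also the most spread.

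Cyclin D2, encoded by Ccnd2, was read by 7 probe sets, all of them lower in starved cells. The brightest (1416122_at) was at 10.92, 11.02 and 11.02 in control and at 10.41, 10.46 and 10.61 in starved arrays. The groups were clearly apart, and starved replicate 3 was the least lowered of its group. This fall was 0.49 ± 0.07, or 1.41-fold (limma adjusted p = 0.000937). Changes of the 7 sets ran from -0.63 ± 0.08 (1416124_at) to -0.43 ± 0.12 (1416123_at), and starved replicate 3 had the highest starved value in each of them. 1448229_s_at and 1455956_x_at, whose suffixes mark sets that can also match other transcripts, fell by 0.49 ± 0.09 and 0.44 ± 0.07. The call of 1416123_at (adjusted p = 0.0211) was lost in limma's test without control replicate 1 (adjusted p = 0.0729), control replicate 3 (0.0675), starved replicate 1 (0.0733) or starved replicate 2 (0.0698), and its adjusted p lay between 0.00261 and 0.0733 over all alternatives.

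Ccnd3 encodes cyclin D3, often the most widely expressed D cyclin in differentiated tissues. Its only probe set (1415907_at) read 9.84, 9.85 and 9.86 in control and 9.55, 9.53 and 9.55 in starved arrays. Replicates were tighter than for any other probe set of the 21, with SDs of 0.0072 and 0.0093, and the groups were apart. The fall of 0.31 ± 0.05 was 1.24-fold (limma adjusted p = 0.00184), and 1690 genes fell by more.

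Ratios between genes on the same array show how unequal these falls were without setting levels of different probes against each other. The log2 ratio of Ccnd1 to Ccnd3 was 0.32 ± 0.05 (SD, n = 3) in control and -0.35 ± 0.07 (SD, n = 3) in starved arrays, so Ccnd1 fell by 0.67 more (95% interval of the difference -0.81 to -0.52). By brightest probe sets Ccnd1 also fell more than Ccnd2, by 0.48 (interval -0.80 to -0.15). Not every probe set gave this order. The Ccnd1 sets 1417420_at and 1448698_at fell by 0.97 and 1.13, more than any Ccnd2 set. The dimmest Ccnd1 set (1417419_at) fell by 0.58, less than the Ccnd2 sets 1416124_at (0.63) and 1434745_at (0.59). Ccnd2 against Ccnd3 gave -0.19 with an upper bound at 0.00 (lower bound -0.38). For each of these 3 pairs the 3 starved ratios lay below the 3 control ratios, which gives the smallest p that 3 against 3 arrays allow in the exact two-sided permutation test (p = 0.1, adjusted p = 0.133 over the 8 pairs compared). The test could therefore not reach 0.05, and the intervals come from a linear model of the ratio.

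The largest fall of the 10 genes was that of an E cyclin. Ccne2, which encodes cyclin E2, was at 6.25, 5.98 and 6.15 in control and at 4.67, 4.50 and 4.79 in starved arrays (1422535_at). No starved value came near the control range, and all 3 were under 5, the limit for dim probe sets, so the size of the fall is less certain than its direction. On this scale it was 1.48 ± 0.10, or 2.78-fold (limma adjusted p = 2.04e-05), and 62 of the 12393 genes fell by more. Ccne1, for cyclin E1, read 7.28, 7.32 and 7.55 in control and 6.40, 6.30 and 6.44 in starved arrays (1416492_at). Here too the groups were apart, with control replicate 3 the highest array. The fall was 1.00 ± 0.08, or 2.00-fold (limma adjusted p = 6.05e-05), with 185 genes falling by more. The measured fall of Ccne2 was larger than that of Ccne1 by 0.47, a value of uncertain size because starved Ccne2 was dim, with all 3 ratios of Ccne1 to Ccne2 higher in starved than in control arrays (exact permutation p = 0.1, adjusted p = 0.133).

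Cdkn1b encodes p27, an inhibitor of cyclin E with Cdk2. Its brightest probe set (1434045_at) was at 9.58, 9.54 and 9.33 in control and at 9.63, 9.59 and 9.58 in starved arrays. Control replicate 1 lay inside the starved range, so the groups overlapped, and control replicate 3 was the low array. The difference of 0.12 ± 0.08 did not pass (limma adjusted p = 0.263), and without control replicate 3 it was 0.04. The dimmer probe set (1419497_at) read 6.46, 6.58 and 6.41 in control and 6.780, 6.778 and 6.995 in starved arrays. These groups did not overlap, and the rise of 0.37 ± 0.08 passed (limma adjusted p = 0.00767). The mean of both probe sets rose by 0.24 (limma adjusted p = 0.0168, range over alternatives of the brighter set 0.0168 to 0.618), so the call for Cdkn1b depends on the probe set.

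Cdkn2c, for the Cdk4 and Cdk6 inhibitor p18, rose by a small amount. It read 10.29, 10.27 and 10.37 in control and 10.57, 10.67 and 10.62 in starved arrays (1416868_at). Each starved array was above each control array. The rise of 0.31 ± 0.06 was 1.24-fold (limma adjusted p = 0.00363), and 1825 genes rose by more. The Cdkn1b change was 0.19 lower than that of Cdkn2c (interval -0.51 to 0.13, exact permutation p = 0.2, adjusted p = 0.229), so a difference between these inhibitors was not resolved. It was 0.30 without control replicate 3 and 0.07 with the mean of the Cdkn1b probe sets.

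**Figure D2:**
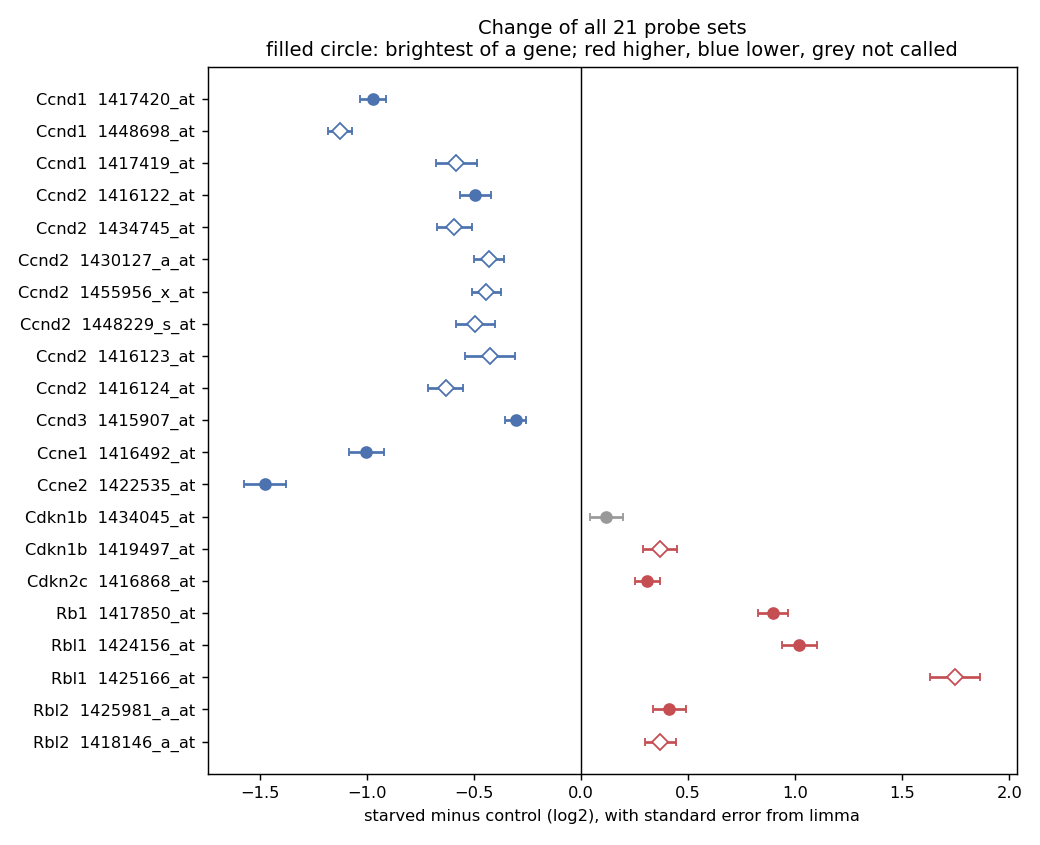
Starved minus control (log2) for each of the 21 probe sets, with the standard error from limma; filled circles mark the brightest probe set of a gene and open diamonds its other sets, red higher, blue lower and grey not passing. The 13 cyclin sets lie left of 0, between -1.48 and -0.31, and the 8 others lie right of 0, up to 1.75 for the dim Rbl1 set.

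Rb1 encodes the retinoblastoma protein, the pocket protein that restrains the activating E2F factors. It was at 7.76, 7.85 and 7.85 in control and at 8.83, 8.65 and 8.66 in starved arrays (1417850_at). All starved arrays were above all control arrays, with starved replicate 1 the highest. The rise of 0.90 ± 0.07 was 1.86-fold (limma adjusted p = 4.35e-05), and 283 genes rose by more.

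Rbl1 encodes p107, a pocket protein usually abundant in dividing cells and itself an E2F target. Its brightest probe set (1424156_at) read 7.61, 7.74 and 7.90 in control and 8.69, 8.80 and 8.82 in starved arrays. The groups were far apart although the control arrays spread by more than the starved ones. This was the largest rise of the 10 genes by brightest probe set, 1.02 ± 0.08 or 2.03-fold (limma adjusted p = 5.33e-05). The dimmer set (1425166_at) went from 4.52, 4.36 and 4.79 in control to 6.20, 6.27 and 6.44 in starved arrays. All 3 of its control values were under 5, so the rise of 1.75 ± 0.12 starts at background and its size is uncertain.

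Rbl2 encodes p130, the pocket protein that prevails in resting cells, where it forms the repressive DREAM complex with E2F4 and the MuvB proteins. It was at 8.46, 8.63 and 8.48 in control and at 9.07, 8.84 and 8.90 in starved arrays (1425981_a_at). The groups did not overlap, control replicate 2 being the nearest to the starved arrays. The rise was 0.41 ± 0.08, or 1.33-fold (limma adjusted p = 0.00386), and the other probe set (1418146_a_at) rose by 0.37 ± 0.07. Rb1 rose by 0.48 more than Rbl2 (interval 0.36 to 0.61), and Rbl1 by 0.61 more (interval 0.21 to 1.00), both with ratios that did not overlap between groups (exact permutation p = 0.1, adjusted p = 0.133). With the mean of the probe sets of each gene, the second of these differences was 0.99. Rb1 and Rbl1 were not resolved from each other, with a difference of -0.12 (interval -0.45 to 0.20, exact permutation p = 0.3). That difference was -0.49 when the probe sets of each gene were averaged, which takes in the dim Rbl1 set, and -0.22, -0.08 and -0.07 without starved replicates 1, 2 and 3.

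**Figure D3:**
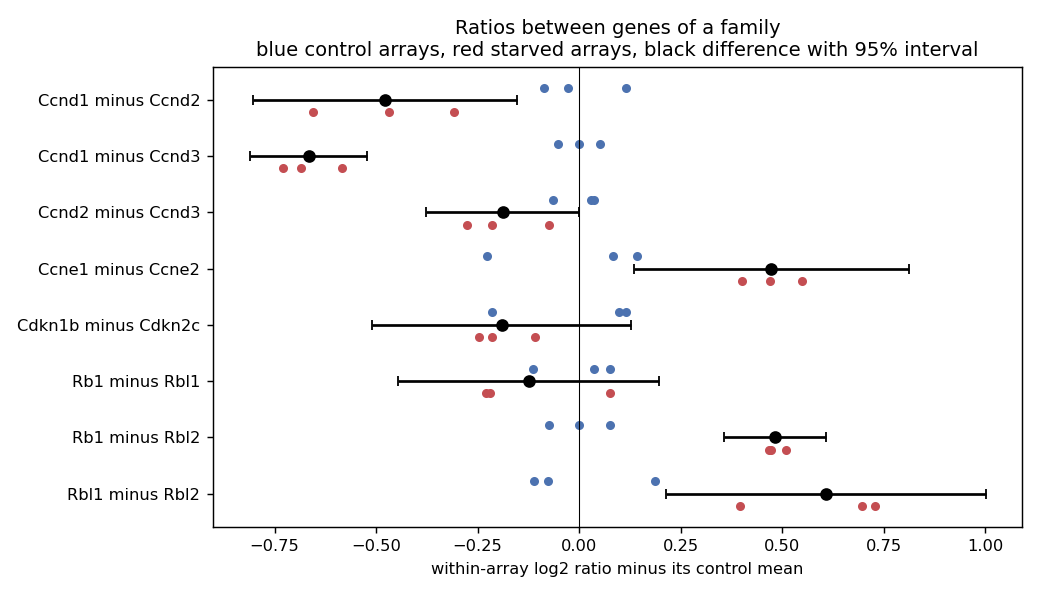
Within-array log2 ratio of the brightest probe sets of 8 pairs of genes, minus its control mean, with blue points for control arrays, red points for starved arrays and a black point with its 95% interval for the difference between groups. The Ccne1 minus Ccne2 interval rests on dim starved Ccne2 values and is no measure of its size. Intervals for Cdkn1b minus Cdkn2c and for Rb1 minus Rbl1 cross 0, and that for Ccnd2 minus Ccnd3 ends at it.

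Within groups the means over the genes of a class moved little. Relative to each gene's mean over the 6 arrays, the mean of the 5 cyclin genes was 0.42, 0.38 and 0.47 in control and -0.42, -0.49 and -0.37 in starved replicates 1, 2 and 3. For the 5 inhibitor and pocket protein genes it was -0.31, -0.25 and -0.27 in control and 0.31, 0.26 and 0.26 in starved arrays. No single array carried either pattern. Some single genes varied more within a group. On the same scale the control values of Ccne2 were 0.86, 0.59 and 0.76, and those of Cdkn1b 0.04, -0.0037 and -0.21. Others varied less, such as Ccnd3 at 0.15, 0.15 and 0.16. The genes whose 6 values, each centred on the gene's mean, were closest to those of Rbl1 were Tnfrsf23 (mean absolute difference 0.0158), Atf7ip (0.0336) and Phip (0.0382). Closest to Ccne2 were Spry2 (0.0578), Gsta4 (0.0754) and Cyp51 (0.0853). This likeness covers 6 arrays of 2 groups and is mostly the size of the change between groups.

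RefSeq promoter windows of 300 bases (250 before and 50 after a transcript start, GRCm38.p6) were at hand for 6 of the 10 genes, with 8 windows in all. The 150 bases before the start are shown for the 4 genes with a single window, an E cyclin gene that fell, 2 pocket protein genes that rose and the inhibitor gene Cdkn1b, whose brightest probe set did not pass. Capitals mark an E2F motif, GC boxes and CCAAT boxes, and the Rbl2 stretch holds none of these. Ccne1 lies on the minus strand at chr7:38107491-38107640, Cdkn1b on the plus strand at chr6:134920251-134920400, Rbl1 on the minus strand at chr2:157204535-157204684 and Rbl2 on the plus strand at chr8:91069907-91070056.
Ccne1: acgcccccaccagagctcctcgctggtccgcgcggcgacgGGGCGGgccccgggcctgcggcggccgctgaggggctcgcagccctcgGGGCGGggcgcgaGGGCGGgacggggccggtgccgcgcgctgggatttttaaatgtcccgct
Cdkn1b: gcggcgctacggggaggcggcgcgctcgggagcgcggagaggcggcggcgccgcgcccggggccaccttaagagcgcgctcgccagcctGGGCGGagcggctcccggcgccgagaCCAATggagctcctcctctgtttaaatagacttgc
Rbl1: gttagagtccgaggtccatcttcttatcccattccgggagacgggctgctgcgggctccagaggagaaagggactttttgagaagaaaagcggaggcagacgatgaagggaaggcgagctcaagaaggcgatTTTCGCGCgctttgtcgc
Rbl2: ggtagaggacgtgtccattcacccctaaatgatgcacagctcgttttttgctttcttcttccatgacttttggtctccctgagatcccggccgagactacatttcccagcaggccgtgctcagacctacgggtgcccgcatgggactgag
Letters were searched on both strands as E2F (TTTGGCGC, TTTCCCGC, TTTGCCGC or TTTCGCGC), the cell cycle homology region CHR (TTTGAA), the cyclic AMP response element (TGACGTCA), the GC box (GGGCGG), the CCAAT box (CCAAT) and FoxO (GTAAACA); none of these letter strings lies inside another. Rbl1 was the only one of the 6 genes whose window held E2F letters, TTTCGCGC beginning 18 bases before the start, against 2.26% of all 32851 windows. GC boxes stood in 7 of the 8 windows, against 35.7% of all, and the Ccne1 window held 4, of which 3 began within 110 bases before the start. CCAAT letters were in 3 windows (37.4% of all), CHR letters in 1 (Rbl2, beginning 201 bases before the start, 17.9% of all) and FoxO letters in 1 (Ccnd3, 3.65% of all). The cyclic AMP element was in 0 of the 8 (1.79% of all). These are matches of letters, not measured binding sites.

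The partners of these genes did not share a single direction. Among D cyclin kinases and the proteins that assemble or activate them, 3 of 7 genes rose and 3 fell (median 0.00, against -0.01 over all genes). That is 85.7% called, against 40.8% of all genes. Cdk4 fell by 0.31 ± 0.05, while Cdk6, the other partner of D cyclins, rose by 0.43 ± 0.10. Ccnh and Cdk7, which form the CDK-activating kinase, fell by 0.27 ± 0.06 and 0.23 ± 0.05, and by 0.51 and 0.41 with the mean of all their probe sets. Mnat1, the assembly factor of the same kinase and named for its value, rose by 0.21 ± 0.05, a call lost in limma's test without control replicate 1 (adjusted p = 0.0514) or control replicate 2 (0.0507), with 0.0027 to 0.0514 over all its alternatives. Hsp90aa1 rose by 0.21 ± 0.06, a call lost in limma's test without control replicates 1 or 2 or starved replicates 1 or 2 (adjusted p from 0.0535 to 0.0799) and with the replicate number as a block (0.0644; range over its alternatives 0.000234 to 0.0799).

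In contrast to the E cyclins, most genes of the list built around their kinase rose. Of 8 measured, 6 rose and 1 fell (median 0.70), so that 87.5% were called, against 40.8% of all genes. The list also holds the S phase cyclin gene Ccna2 and the mitotic kinase gene Cdk1, and its median is above the change of Cdk2. Cdk2 itself rose by 0.26 ± 0.05 and its inhibitory kinase Wee1 by 0.54 ± 0.06. Ccna2, the cyclin that succeeds cyclin E on Cdk2 in S phase, rose by 1.65 ± 0.09, from 9.41, 9.66 and 9.74 in control to 11.23, 11.26 and 11.27 in starved arrays. The mitotic kinase gene Cdk1 rose by 0.87 ± 0.06, and the phosphatase genes Cdc25b and Cdc25c rose by 1.66 ± 0.06 and 1.40 ± 0.06. Cdc25a, the phosphatase of the G1/S transition, was the one that fell, by 0.44 ± 0.06, and is named because of that value.

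Among the other CDK inhibitor genes 2 of 5 rose and 0 fell (median 0.02), a share called near the 40.8% of all genes. Cdkn2a (3.23 in control and 3.13 in starved cells) and Cdkn2b (4.11 and 4.13) were not called and were under the dim limit in both groups. The list median is the change of Cdkn2b. Cdkn1a, which encodes the p53-induced inhibitor p21, rose by 1.08 ± 0.05, from 10.61, 10.57 and 10.56 to 11.66 on average. Cdkn2d, for p19, the closest relative of p18 in this list, rose by 0.88 ± 0.06. Cdkn1c, for p57, had means of 5.85 (control) and 5.72 (starved) without passing (adjusted p = 0.352 in limma's test). That difference of -0.13 ranged from -0.20 to -0.04 on leaving out single arrays.

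Of 7 E2F and DP genes 2 rose and 1 fell (median -0.07), so that 42.9% were called, near the 40.8% of all genes. Tfdp1, the DP subunit that pairs with E2F factors, fell by 0.67 ± 0.06, and E2f8, an atypical repressor expressed in S phase, rose by 0.69 ± 0.07. E2f1 rose by 0.25 ± 0.07 in its brightest probe set. This call was lost in limma's test without control replicate 1 (adjusted p = 0.0710), control replicate 3 (0.0661), starved replicate 2 (0.0529) or starved replicate 3 (0.0779) and when its probe sets were averaged (0.16, with 0.0505; adjusted p over all alternatives 0.00344 to 0.0779). E2f6 had means of 8.20 (control) and 8.09 (starved) without passing.

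In a list of genes for DREAM subunits and factors that bind MuvB, 5 of 6 rose and 0 fell (median 0.54). That is 83.3% called, against 40.8% of all genes. Those that rose were Foxm1 (1.38 ± 0.06), Lin9 (0.93 ± 0.06), Mybl2 (0.62 ± 0.06), Lin37 (0.47 ± 0.07) and Mybl1 (0.45 ± 0.09), the last under 5 in both groups. Foxm1 and Mybl2 activate mitotic genes, and Lin9 and Lin37 are MuvB core subunits. Foxm1, Mybl2 and Mybl1 are not partners of p107 or p130, so the count is not one of the repressive complex alone. The Foxm1 rise was 0.68 in the mean of its 4 probe sets. Rbbp4 differed by 0.12 ± 0.05 without passing, but its 3 probe sets averaged a rise of 0.36 (limma adjusted p = 0.000619), and it passed with an intensity trend and robust moderation (0.0105; range over its alternatives 0.000619 to 0.238).

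Corepressors that pocket proteins recruit were mixed, with 5 of 11 higher and 4 lower (median 0.12), 81.8% called against 40.8% of all genes. The scaffold gene Sin3a rose by 0.68 ± 0.07 and the histone demethylase gene Kdm5a by 0.59 ± 0.12, with smaller rises of Dnmt1 (0.33 ± 0.08) and Rbbp7 (0.24 ± 0.05). The histone deacetylase genes Hdac1, Hdac2 and Hdac3, named because they were 3 of the 4 that fell, fell by 0.31 ± 0.06, 0.24 ± 0.08 and 0.23 ± 0.05. The Hdac2 call (adjusted p = 0.0453) was lost in limma's test without any 1 control array or without starved replicate 2 or 3 (0.0914 to 0.140) and with the replicate number as a block (0.0652), with 0.00415 to 0.140 over all its alternatives. Smarca2, a chromatin remodelling ATPase, fell by 0.43 ± 0.08 in its brighter probe set, and the mean of both its sets did not pass (-0.16, limma adjusted p = 0.175, range over its alternatives 8.8e-05 to 0.175).

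In the list of ubiquitin ligase genes for cyclins, p27 and p130, 7 of 17 rose and 2 fell (median 0.19). That is 52.9% called, against 40.8% of all genes. The 7 include Usp2, which encodes a deubiquitinase and not a ligase, and rose by 0.21 ± 0.07 (limma adjusted p = 0.0355). The 2 that fell encode parts of the SCF ligase that marks p27 for degradation, the scaffold Cul1 (-0.45 ± 0.06) and the receptor Skp2. Skp2 went down by 0.43 ± 0.09 in its brightest probe set and in 4 others by 0.26 to 0.66, while the dimmest set, with a control mean of 4.84, rose by 0.43 ± 0.08. Cks1b, the cofactor with which Skp2 recognises p27, is named for its value and rose by 0.34 ± 0.08. Fzr1, the Cdh1 activator of the anaphase-promoting complex, rose by 0.72 ± 0.06, and Fbxo31, for a receptor of cyclin D1, by 0.49 ± 0.09. Skp1, at 12.50 in control and 12.47 in starved cells, did not pass.

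E2F target genes of the G1/S transition rose in 21 of 30 and fell in 2 (median 0.52), 76.7% called against 40.8% of all genes. Pole (1.30 ± 0.07), Ezh2 (1.24 ± 0.07), Dbf4 (0.99 ± 0.07) and Cdc45 (0.97 ± 0.06) rose the most, Dbf4 by 0.53 in the mean of its probe sets. The 2 that fell, named for that reason, were the origin licensing gene Cdc6 (-0.84 ± 0.06) and the uracil glycosylase gene Ung, which fell by 0.83 ± 0.08. Cdc6 read 7.51, 7.54 and 7.64 in control and 6.80, 6.68 and 6.70 in starved arrays, with no overlap. Pcna, at 11.92 in control and 11.87 in starved cells, did not pass. The E cyclin genes, which are textbook E2F targets as well, had falls of at least 1.00 while the median of this list rose.

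Markers of S, G2 and M phases rose in 23 of 23 by their brightest probe sets (median 1.53, lowest 1.03), and in 22 when sets ending in _s_at or _x_at were left out. Over all genes 20.8% were called higher. Cenpe (2.09 ± 0.07), Aurka (1.82 ± 0.07), Nusap1 (1.79 ± 0.07) and Plk1 (1.73 ± 0.09) were the furthest up. In the mean of their probe sets Nusap1 rose by 1.19 and the topoisomerase gene Top2a by 0.58, the latter against 1.24 ± 0.08 in its brightest set. Arrays of starved cells held lower G1 cyclin RNA beside higher RNA of later phases, and how the cells were distributed over the cycle was not measured.

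**Figure D4:**
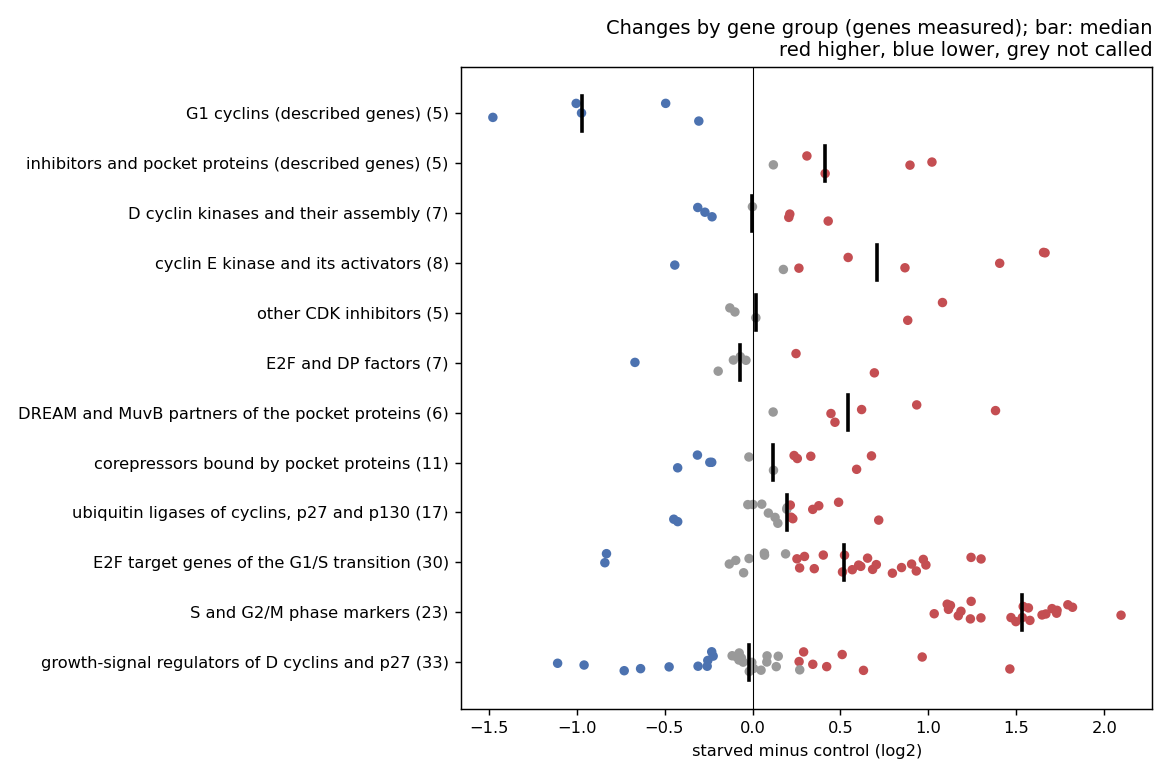
Starved minus control (log2) of each measured gene, by its brightest probe set, for the described genes split into cyclins and others and for the 10 lists of their partners and targets; numbers in brackets count genes, black bars are medians, red is higher, blue lower and grey not passing. The cyclin row has its median at -0.97, the inhibitor and pocket row at 0.41, and the S and G2/M row, at 1.53, has all its genes to the right of 1.

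Growth-signal regulators of D cyclins and p27 rose in 8 and fell in 10 of 33 (median -0.02). That is 54.5% called, against 40.8% of all genes (20.8% higher and 20.1% lower). Etv5, an ETS factor induced by ERK signalling, fell by 1.11 ± 0.11 to a starved mean of 4.29, under the dim limit. Fosl1, an AP-1 factor that acts on the Ccnd1 promoter, fell by 0.96 ± 0.12, whereas its relative Fosl2 rose by 0.96 ± 0.09. Klf5 rose by 1.46 ± 0.14, or by 0.80 in the mean of its probe sets. Ctnnb1, which encodes beta-catenin, fell by 0.23 ± 0.05, and by 0.37 in the mean of its probe sets.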

How the data were processed

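Biotin-labelled RNA of 6 samples was measured on Affymetrix mouse arrays, per the labels' protocols. The deposited log2 values, 1 for each probe set on each array, come from RMA (affy), per the submitters' processing notes, with no version named there. RMA includes quantile normalization, which hides a shift of most transcripts in 1 direction. The values carry no detection calls, and a level of 5 (log2) served as limit for dim probe sets.

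64 control probe sets were set aside and 22626 tested two-sided by lmFit and eBayes of limma 3.58.1 (R 4.3.3) with no covariate, adjusted by Benjamini-Hochberg over all of them. The platform annotation gave 20380 probe sets 1 gene, 691 several and 1555 none. A gene was represented by its probe set of highest mean. Ratios within arrays were compared between groups by an exact permutation test. The fit was tested on simulated data. Figures used matplotlib 3.10.9 in Python 3.11.15.

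The 10 genes, the 10 lists of partners and targets and the 6 marker lists were chosen with earlier results of these data known. The text names all 10 genes with their probe sets. From each list it names up to 4 called genes of largest change and some of up to 2 others of highest level. Genes marked as named for their values were added, and Usp2 was named for its function. Alternatives were dropping dim probe sets, repeated quantile normalization, median centring, an intensity trend with robust moderation, array weights, leaving out _s_at and _x_at sets, means of probe sets, adjustment over genes, a threshold of 0.01, the replicate block and leaving out each array. Scan dates were not used here, and a batch that coincides with a group cannot be told apart from treatment.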

Additional observations from a re-analysis of the deposited data

How the results depend on the processing

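All 307 values of the 21 probe sets under the alternatives kept their direction, and 301 also kept their side of the threshold. Many of these values could not change direction. Dropping dim or _s_at and _x_at sets, the intensity trend with robust moderation and adjustment over genes leave each change itself as it is. So do the threshold of 0.01 and the replicate block. The call of Ccnd2 1416123_at was lost at a threshold of 0.01 (-0.43) and on leaving out 4 of the 6 arrays, with changes of -0.54 to -0.36 over the 6, and Cdkn1b passed with the mean of its probe sets (0.24). Of the 10 genes 9 were called under every alternative but that mean, which called 10. All 64 alternative values of the ratios between genes kept their direction, which those with the replicate block could not have changed. At a threshold of 0.01 the list of D cyclin kinases and their assembly had 3 calls in place of 6; the other lists stayed within 1.5 times their counts. Second quantile normalization and median centring moved the median change of all probe sets by 0.00572 and -0.0188. Deviations of same-numbered arrays from their group means correlated at -0.094, 0.015 and -0.0083, so no shared deviation was seen. With 3 arrays a group this does not settle whether the cultures were paired. With the replicate block the 20 probe sets called stayed called, Cdkn1b 1434045_at again did not pass, and 8168 of all probe sets passed in place of 8933. With 3 arrays a group, signal over background limits Ccne2 and the dim Rbl1 set.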

Other observations

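Cyclin genes outside the G1 set, picked by symbol after the data were seen, moved in both directions. Of 17 measured, 7 rose and 3 fell in limma's test, against 40.8% of all genes that passed. Besides Ccna2, the mitotic cyclin gene Ccnb2 (1.11 ± 0.07) rose, as did Ccnf (1.03 ± 0.06), a gene of the list of S and G2/M markers. Ccng2, which encodes an unconventional cyclin linked to cell cycle arrest and known as a FoxO target, rose by 0.55 ± 0.05, and the p53 target Ccng1 rose by 0.20 ± 0.05. Ccnk (0.46 ± 0.06) and Ccnl2 (0.42 ± 0.07), cyclins of transcription and splicing kinases, were also higher. The 3 that fell were Ccnh, Ccnj (-0.27 ± 0.08, under 5 in both groups) and Ccnc, which fell by 0.17 ± 0.06 (adjusted p = 0.0486). Of 13 genes with a numbered Cdk symbol 3 rose and 3 fell, among the latter Cdk14 (-0.29 ± 0.06), and Cdk9, the elongation kinase, did not pass (-0.12 ± 0.05, adjusted p = 0.102).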
